A study of Homo sapiens with 4 samples.

Results

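The BEX (brain expressed X-linked) family is a group of small proteins encoded by genes on the X chromosome, and the PrimeView annotation pairs 5 probe sets with exactly 1 BEX symbol, 1 for each of BEX1, BEX2, BEX3, BEX4 and BEX5. All 5 were taken, out of 49293 probe sets and 18132 named genes on each array. The 4 arrays carry RNA labelled as coming from Hs578T, an established human breast cancer line with mesenchymal features. Per the labels, 2 arrays hold cells transduced with a lentiviral shRNA against ELK3, an ETS family transcription factor, numbered 1 and 5, and 2 hold an sh control, numbered 1 and 2. The knockdown cells are described as stable, insulin was in the medium of both groups, and the labels give neither the hairpin in each array nor whether a number marks a culture, a clone or a construct. Any p-value therefore measures the spread between these arrays, which may be technical.

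BEX proteins are largely unstructured and act as adaptors, and they are known mainly from neurons and neuroendocrine cells, where they take part in neurotrophin signalling, differentiation, cell cycle control and apoptosis. BEX1 and BEX3 bind the neurotrophin receptor p75 (NGFR), and BEX3 is also called NADE, the p75 receptor-associated cell death executor. BEX2 binds the LIM protein LMO2 and has been studied in breast tumours, BEX4 associates with alpha-tubulin and the deacetylase SIRT2, and the function of BEX5 is little described. BEX1 and BEX2 are known to be silenced by promoter methylation in glioma.

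The BEX genes fell into pairs by the sequence before their start sites. The 250 bases before the most upstream start of each gene were read from RefSeq (GRCh38.p14), which lists 1 start each for BEX1 and BEX2, 2 each for BEX4 and BEX5, and 3 for BEX3. They are shown for the 4 genes that share a long run, with that run in capitals, 5′ to 3′ on the strand of the gene. The BEX2 window lies at chrX:103310991-103311240 on the minus strand and the BEX4 window at chrX:103214842-103215091 on the plus strand.
BEX2: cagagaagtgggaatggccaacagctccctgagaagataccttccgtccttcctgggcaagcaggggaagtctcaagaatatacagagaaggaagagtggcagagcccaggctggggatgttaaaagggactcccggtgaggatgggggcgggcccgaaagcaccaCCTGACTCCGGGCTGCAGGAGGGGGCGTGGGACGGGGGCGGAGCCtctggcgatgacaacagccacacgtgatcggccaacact
BEX4: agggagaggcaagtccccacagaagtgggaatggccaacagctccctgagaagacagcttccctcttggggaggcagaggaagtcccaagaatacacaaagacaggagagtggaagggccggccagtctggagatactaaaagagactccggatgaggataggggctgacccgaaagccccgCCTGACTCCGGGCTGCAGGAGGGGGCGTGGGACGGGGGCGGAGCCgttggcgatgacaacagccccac
BEX2 and BEX4 share an unbroken run of 45 bases, which ends 40 bases before the start of BEX2 and 24 bases before that of BEX4. Over their whole windows they were 73.7% identical in a global alignment. The run occurs in 2 of 27303 promoters, those of BEX2 and BEX4 themselves. The BEX1 window lies at chrX:103064172-103064421 on the minus strand and the BEX3 window at chrX:103376073-103376322 on the plus strand.
BEX1: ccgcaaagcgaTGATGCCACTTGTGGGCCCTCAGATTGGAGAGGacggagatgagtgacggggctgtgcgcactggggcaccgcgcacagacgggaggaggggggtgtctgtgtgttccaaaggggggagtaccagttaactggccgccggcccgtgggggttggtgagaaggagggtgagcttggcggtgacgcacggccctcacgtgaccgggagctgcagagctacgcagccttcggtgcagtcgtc
BEX3: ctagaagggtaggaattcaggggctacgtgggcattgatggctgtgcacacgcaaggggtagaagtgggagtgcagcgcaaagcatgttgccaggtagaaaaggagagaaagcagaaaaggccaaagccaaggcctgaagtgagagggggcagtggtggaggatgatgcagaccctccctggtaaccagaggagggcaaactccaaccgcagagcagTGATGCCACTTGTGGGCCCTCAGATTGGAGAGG
BEX1 and BEX3 share a run of 33 bases, also found in 2 of 27303 promoters. It lies 239 to 207 bases before the start of BEX1 and directly before the most upstream start of BEX3. Their windows were 47.0% identical at that start and 72.8% identical at the best of the 3 BEX3 starts. The other 8 pairs of BEX genes, all those with BEX5 among them, shared runs of 8 to 10 bases and were 45.6% to 49.6% identical at the most upstream starts.

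The windows at the most upstream starts also differ in their content of CpG, the dinucleotide at which DNA is methylated. BEX1 has 19 CpG in its 250 bases and BEX3 has 4, while BEX2 has 11 and BEX4 and BEX5 have 10 each, against a median of 10 over all promoters. The core letters of ETS sites, GGAA on either strand, were found 5 times before BEX2, 4 times before BEX4 and 1 time before each of BEX1, BEX3 and BEX5. At least 1 is held by 92.9% of all promoters. The usual number per promoter was not computed, so the counts cannot be called high or low. The longer forms CCGGAA and, within it, CCGGAAGT were found before 0 of the 5 genes, against 14.8% and 3.64% of all promoters. The E-box CACGTG occurred 1 time before BEX1 and 1 time before BEX2, and 6.46% of all promoters hold it. These matches are descriptions of letters in a window, not of sites in use. CpG and matches were not counted at the other starts of BEX3, BEX4 and BEX5. The BEX1 and BEX3 windows compared here are the pair with 47.0% identity, not the pair with 72.8%.

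The arrays formed 2 tight pairs that stood far apart. Arrays of a group correlated at r = 0.996 and 0.998 and arrays of different groups at 0.902 to 0.904, counted over probe sets, which cannot serve as replicates. ELK3 itself stood at 8.09 and 7.92 on the knockdown arrays and at 10.05 and 10.07 on the controls (RMA log2 signal, the unit of all levels here). All 13 mesenchymal markers listed for Hs578T cells fell in the knockdown arrays (limma, adjusted p under 0.05), where their mean signal was 7.57 and 7.44 against 12.09 and 12.00 in the controls. COL1A2, AXL, CDH11 and THY1 had the 4 largest falls by the brightest probe set of each gene. They stood at 5.30, 5.62, 3.69 and 5.01 on average in the knockdown arrays. VIM (13.12), SPARC (11.07), CDH2 (10.72) and ZEB1 (9.29) stayed bright there. With all probe sets averaged, AXL, CDH11 and COL1A2 fell less. Their differences were then -5.16, -3.25 and -7.54, against -7.26, -7.18 and -8.37 by the brightest. Whether the cells of the 2 groups differ in more than the shRNA was not tested, so each difference below is one between arrays with these labels. Of 12 epithelial markers 4 rose (KRT8, KRT18, KRT19 and OCLN) and 1 fell (KRT7), with mean signals of 7.52 and 7.43 against 6.30 and 6.31 and a median difference of 0.13; CDH1 and EPCAM were among the 7 that did not pass. Of 7 leukocyte markers 1 fell, and their means ranged from 5.31 to 5.51. By the same fit, 29.5% of all genes rose and 21.3% fell. RMA gives no zero and no call of absence. These marker shifts separate the same arrays as every BEX difference below, and their part in those differences was not tested.

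BEX4, BEX2 and BEX3 were higher in the knockdown arrays, and BEX1 and BEX5 were near the dim end of the arrays in both groups. The family was chosen by the signals of this same contrast, in which BEX4 had one of the largest rises, so the values of its members are a description and carry no test. By the model fitted across all genes (limma, adjusted p under 0.05), 3 of the 5 members were called higher and 0 lower, where 50.8% of all genes were called, 29.5% higher and 21.3% lower. The 3 were also more than 2-fold higher, as were 10.2% of all genes, while 0 were more than 2-fold lower, as were 7.52%. The groups did not overlap, with the knockdown arrays higher, for 4 of the 5 members, against 38.5% of all genes (75.3% in either direction). Nothing is read from these counts, since the contrast chose the members. The median difference of the 5 was 1.08 on the log2 scale, and that of all genes was -0.01. In bulk RNA, a change in the number of cells that express a gene and a change in RNA per cell cannot be told apart.

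**Figure D1:**
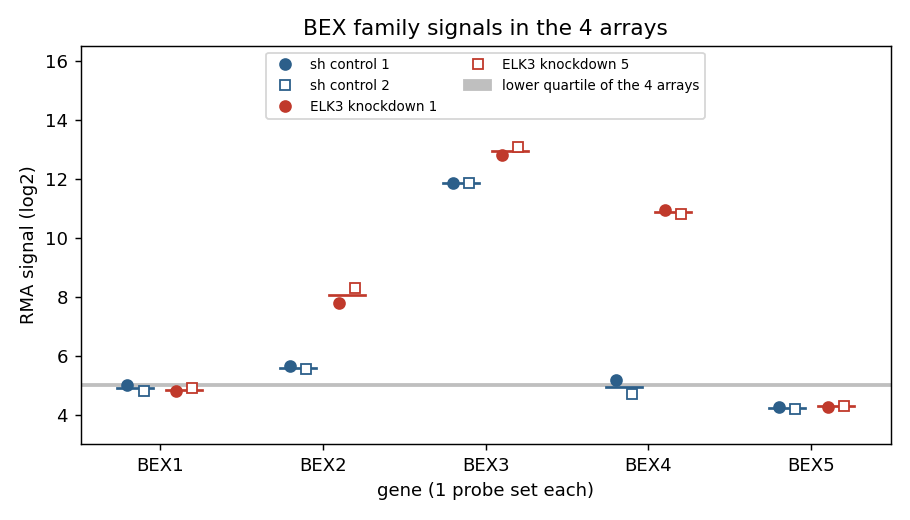
RMA log2 signal (vertical axis) of each BEX gene on the 4 arrays, with sh control in blue and ELK3 knockdown in red; points are arrays, bars are group means, and the grey band spans the lower quartiles of the 4 arrays (4.98 to 5.05). The BEX4 controls lie on either side of the grey band and its knockdown arrays at 10.81 and 10.94, BEX2 and BEX3 are higher in both knockdown arrays, and BEX1 and BEX5 stay at or under the band.

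BEX4, the partner of tubulin and SIRT2, had the largest difference of the family. Its signal was 5.18 and 4.71 in control replicates 1 and 2 and 10.94 and 10.81 in knockdown replicates 1 and 5. Both control values lie near the lower quartile of the arrays, both knockdown values lie far above their medians (6.76 to 6.80), and the groups were 5.63 log2 units apart at their closest. The mean was 4.95 ± 0.33 (SD, n = 2) in the controls and 10.88 ± 0.092 (SD, n = 2) in the knockdown arrays. That is a log2 difference of 5.93 (SE 0.16), or 61.0-fold, and 11 of the 18132 genes had a larger rise. The size of the fold rests partly on the floor of the array, since the control level is dim. The control replicates of BEX4 differed more than those of most genes, with an SD of 0.33 against a 95th percentile of 0.23 over all genes.

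BEX2, the family member that binds LMO2, was higher by a smaller amount. It read 5.64 and 5.55 in control replicates 1 and 2 and 7.80 and 8.31 in knockdown replicates 1 and 5. All 4 values were brighter than the lower quartile, and the groups were 2.16 log2 units apart at their closest. The mean was 5.60 ± 0.058 (SD, n = 2) against 8.05 ± 0.36 (SD, n = 2), a log2 difference of 2.46 (SE 0.17) or 5.50-fold. The knockdown replicates were the ones that spread here: replicate 1 lay 2.20 and replicate 5 lay 2.72 above the control mean, and the SD of 0.36 exceeded the 95th percentile of 0.29 for knockdown arrays. A larger rise was measured for 389 genes (2.15%).

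BEX3, the p75 adaptor, was bright in every array and differed least of the 3. Its signal was 11.84 and 11.87 in control replicates 1 and 2 and 12.81 and 13.07 in knockdown replicates 1 and 5. The groups did not overlap, with a gap of 0.94. The mean was 11.86 ± 0.020 (SD, n = 2) against 12.94 ± 0.18 (SD, n = 2), a log2 difference of 1.08 (SE 0.08) or 2.12-fold. The probe set of BEX3 has a name that marks possible cross-hybridisation, and no other probe set with exactly 1 symbol is assigned to this gene. Probe sets with several symbols or no name were not searched. A larger rise was found for 1635 genes (9.02%), so a shift of this size was common on these arrays.

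BEX1, the other p75 partner, gave 5.01 and 4.80 in control replicates 1 and 2 and 4.80 and 4.91 in knockdown replicates 1 and 5. These values overlap and lie at or under the lower quartile of the arrays. The log2 difference was -0.05 (SE 0.11), less than the control SD of 0.15, and it was 0.0024 without knockdown replicate 1 and 0.052 without control replicate 1. BEX5 read 4.27 and 4.20 in control replicates 1 and 2 and 4.27 and 4.29 in knockdown replicates 1 and 5. Its groups were apart by 0.0087, far less than the SD of 0.045 between the controls, and the log2 difference was 0.05 (SE 0.08). Its probe set, like that of BEX3, has a name that marks possible cross-hybridisation. At these levels a small change in either gene would not be visible. The genes with the paired promoters therefore did not pair in every case by their values: BEX2 and BEX4 were both higher, while of BEX1 and BEX3 only BEX3 was.

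**Figure D2:**
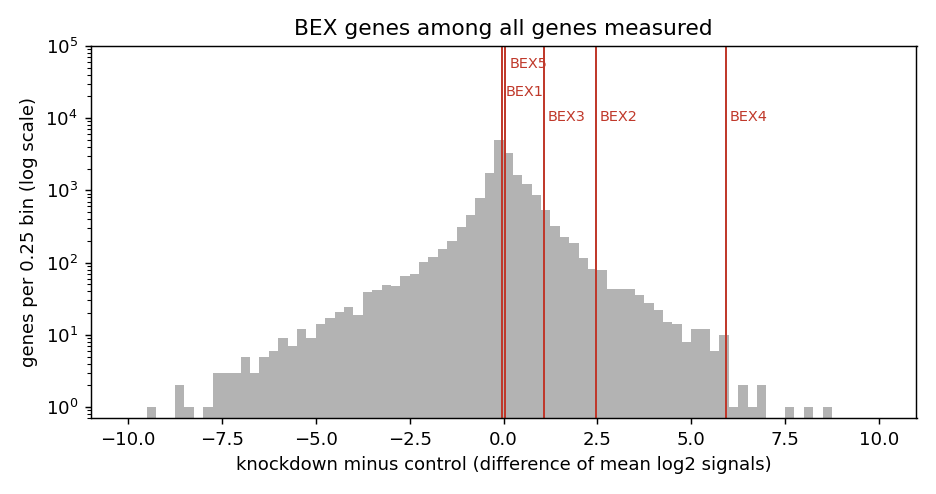
Number of genes (vertical log axis, bins of 0.25) by the difference of mean log2 signals, knockdown minus control, for all 18132 genes; red lines mark the BEX genes. BEX4 at 5.93 lies in the far right tail, BEX2 at 2.46 and BEX3 at 1.08 lie on the right flank, and BEX1 and BEX5 lie at the centre.

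The genes whose level ran closest to each of the 3 higher members over the 4 arrays were found by the root mean square distance of log2 signals. Nearest to BEX4 were KRT19, a keratin of simple epithelia (distance 0.25), TMEM98, a membrane protein (0.34), and COCH, which encodes cochlin (0.40). KRT19 stood at 10.71 and 10.66 on the knockdown arrays and at 4.76 and 4.70 on the controls. Nearest to BEX2 were DOCK11, an exchange factor for CDC42 (0.14), PELI2, an E3 ubiquitin ligase (0.15), and ZSWIM5 (0.18). DOCK11 gave 7.86 and 8.31 against 5.60 and 5.83. Its closeness to BEX2, also in knockdown replicate 5, follows from the choice by distance. Nearest to BEX3 were the RNA helicase gene DDX17 (0.043), the lipid peroxidase gene GPX4 (0.099) and the splicing factor gene RNPS1 (0.11). With 4 arrays in 2 tight pairs, many genes lie close to any given one by this measure.

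The genes that lie among the BEX genes on the X chromosome were read next. From BEX5 to BEX3 the gene table of GRCh38.p14 lists 16 other protein-coding genes, of which 9 were measured. The 9 comprised 5 that rose, 0 that fell and 4 short of the threshold (limma, adjusted p under 0.05 over all genes), where 29.5% of all genes rose and 21.3% fell, with a median difference of 0.60 against -0.01 over all genes. TMSB15A, an actin-sequestering thymosin, had the largest rise. It stood at 6.17 and 5.99 in the controls and at 9.66 and 9.60 in the knockdown arrays, which is 11.7-fold higher (log2 difference 3.55, SE 0.11, limma adjusted p = 5.55e-07). TMSB15A has a near-identical copy, TMSB15B, and the signals of the 2 may mix. ARMCX5 rose by 1.23 and GPRASP3 by 0.93, both members of a family related to a sorting protein of G protein-coupled receptors, and TCEAL7 and TCEAL8 rose by 0.66 and 0.60. The 4 that did not pass were GPRASP1 (0.11), TCEAL9 (0.09), TCEAL5 (-0.14) and NXF3 (-0.17). BEX1 and NXF3, which follow each other in the order of measured genes, were both near 0, and BEX4 comes directly after them. Without the probe sets named as cross-hybridising, 6 of these genes remained measured and 3 rose.

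**Figure D3:**
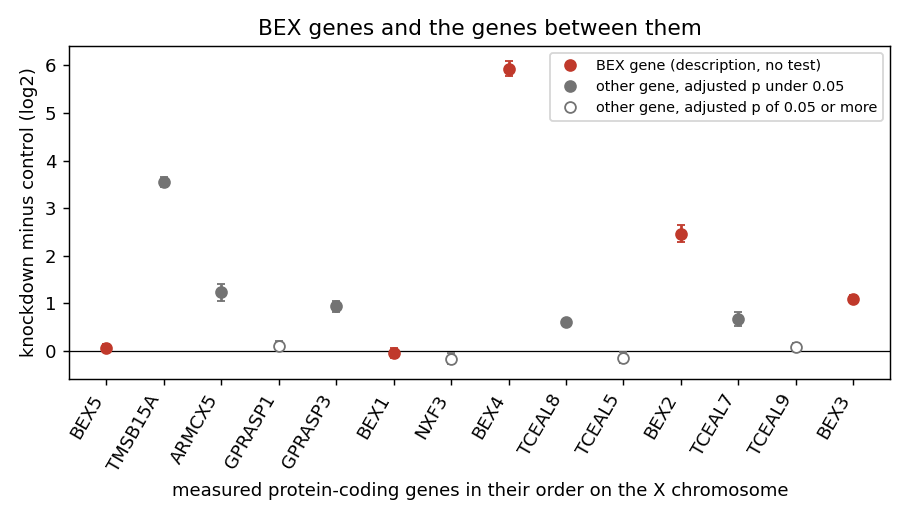
Difference of mean log2 signals, knockdown minus control (vertical axis, bars show the SE of the fit), for the 14 measured protein-coding genes from BEX5 to BEX3 in their order on the X chromosome; red points are BEX genes and open points did not pass. BEX4 (5.93), TMSB15A (3.55) and BEX2 (2.46) stand out. Between them lie genes near 0 and smaller rises (ARMCX5 1.23, GPRASP3 0.93 and TCEAL8 0.60).

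The TCEAL genes are the closest relatives of the BEX genes and encode proteins that resemble a transcription elongation factor. Among the 9 measured, 4 rose and 2 fell, where 29.5% of all genes rose and 21.3% fell, with a median difference of 0.09. Besides the dim TCEAL7 and TCEAL8, which was bright, TCEAL4 rose by 0.56 and TCEAL1 by 0.44. TCEAL4, with 10.58 and 10.49 in the controls and 11.01 and 11.19 in the knockdown arrays, was bright on all arrays (limma adjusted p = 8.14e-04). TCEAL3 went the other way, from 10.00 and 9.99 to 8.20 and 8.17, and was 3.50-fold lower (log2 difference -1.81, SE 0.08, limma adjusted p = 2.46e-06). TCEAL6 was 3.58-fold lower by its brightest probe set. TCEAL3, TCEAL5 and TCEAL6 are near-identical copies, the probe sets of the 2 that fell mark cross-hybridisation, and the other probe set of TCEAL6 was at -0.13, so how the fall divides between the copies is uncertain. With such probe sets left out, 0 of 6 TCEAL genes fell. Of the 8 measured ARMCX and GPRASP genes, also of this region, 2 rose and 3 fell, with a median difference of 0.01. ARMCX1, a protein of mitochondrial transport in axons, was 5.11-fold lower, from 7.72 on both control arrays to 5.54 and 5.19 (limma adjusted p = 1.13e-05), and its other 2 probe sets were at -2.40 and -3.43. ARMCX2 fell by 1.17 and ARMCX3 by 0.25. The direction of ARMCX3 rests on the probe set: another of its probe sets was at 0.67, and their mean was at 0.058 and not called. Its call was also lost with no intensity trend and without control replicate 1, control replicate 2 or knockdown replicate 1. ARMCX5 and GPRASP3 were the 2 that rose, and both are read only by probe sets that mark cross-hybridisation.

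Receptors and ligands of the neurotrophin pathway, in which BEX1 and BEX3 act, moved in both directions. Among the 12 measured, 4 rose and 5 fell, where 29.5% of all genes rose and 21.3% fell, with a median difference of -0.13. The receptor gene NGFR, singled out after its values were seen because it encodes p75, stood at 6.12 and 6.30 in the controls and at 6.94 and 6.56 in the knockdown arrays. It rose by 0.54 (limma adjusted p = 0.0236), but its other probe set was at -0.37, and the call was lost with the mean of both probe sets (0.085), without control replicate 1 (0.45) or without knockdown replicate 1 (0.35). The ligand gene BDNF, brain-derived neurotrophic factor, was 3.36-fold lower, from 8.93 and 9.11 to 7.36 and 7.19 (limma adjusted p = 1.57e-05). SORCS2, a sortilin-type receptor that pairs with p75, was 4.58-fold lower by its brightest probe set and stood at -0.69 and -0.08 by its other probe sets. Among genes of signalling from p75, the kinase gene RIPK2 fell by 1.30 and TRAF6, a ubiquitin ligase, rose by 1.08. MAGEH1, a MAGE family gene, fell by 1.51, and its knockdown replicates differed widely, at 6.79 and 7.90, against 8.86 and 8.85 in the controls. MAGEH1 is read only by a probe set whose name marks cross-hybridisation. Without control replicate 1 the counts of this list were 2 higher and 4 lower.

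Genes for proteins reported to bind BEX proteins, or tied to such partners, were led by NHLH2. Among the 9 measured, 6 rose and 2 fell, where 29.5% of all genes rose and 21.3% fell, with a median difference of 0.78. The 6 include SIRT2 and YWHAE, whose calls rest on the probe set, and the median also counts both by their brightest probe sets. NHLH2, a neuronal basic helix-loop-helix factor reported in a complex with BEX2 and LMO2, was 12.3-fold higher. It stood at 4.32 and 4.67 in the controls and at 8.16 and 8.07 in the knockdown arrays (log2 difference 3.62, SE 0.14, limma adjusted p = 1.70e-06). Both control values are under the lower quartile of the arrays, so the size of this fold, like that of BEX4, rests partly on the floor. The other probe sets of NHLH2 were at 4.22 and -0.09. LDB1, which bridges LIM proteins such as LMO2, rose by 1.03, and LMO2 itself fell by 0.50. The LMO2 call was lost without control replicate 1 (-0.36). It was also lost without cross-hybridising probe sets, since the other LMO2 probe set was at -0.12. HDAC6, a tubulin deacetylase, rose by 0.78, and DIABLO, which promotes apoptosis from mitochondria and is a reported partner of BEX3, by 0.41. The alpha-tubulin gene TUBA1A fell by 0.60, and both of its probe sets have names that mark cross-hybridisation. YWHAE, a 14-3-3 protein that binds BEX3, rose by 0.92, with its other probe sets between -0.04 and 0.95. The direction of SIRT2, the partner of BEX4, rests on the probe set: its brightest was at 0.96 and its other 2 at -0.54 and -0.55. Without the probe sets named as cross-hybridising, 4 of 7 were higher and 1, SIRT2, was lower. Without control replicate 1 the number lower was 1, TUBA1A.

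REST, the repressor that keeps many neuronal genes silent outside neurons, was listed with its corepressors because BEX genes are known from neurons. REST stood at 6.81 and 6.96 in the controls and at 6.76 and 6.92 in the knockdown arrays, which overlap, and its difference was -0.04. Of the 9 genes of this list, 6 rose, 1 fell and 2 did not pass, where 29.5% of all genes rose and 21.3% fell. The median was 0.51, against -0.01 over all genes. The calls of RCOR2 and SIN3A, at 0.51 and 0.44, were lost without control replicate 1 (0.45 and 0.42). The histone deacetylase genes HDAC2 and HDAC1 rose by 1.02 and 0.99, and the other probe sets of HDAC1 were at 1.04 and -0.20. The demethylase gene KDM1A rose by 0.61, and the corepressor gene RCOR3 fell by 0.68. KDM1A is read only by a probe set whose name marks cross-hybridisation. Without knockdown replicate 1 RCOR1 also passed, at -0.33, which made 2 that fell. Neuronal and neuroendocrine markers were read for the same reason. Among the 15 measured, 3 rose, 1 fell and 11 missed the threshold, with a median of -0.04 and mean signals of 6.67 and 6.73 in the knockdown arrays against 6.67 and 6.69. The neurofilament gene NEFL was 7.27-fold higher, and NCAM1 rose by 0.68 (0.05 and not called when its probe sets were averaged). The neuroendocrine factor gene INSM1 rose by 1.13, from 3.98 and 4.20 in the controls, which lie under the lower quartile of the arrays. The neuronal tubulin gene TUBB3 was 8.77-fold lower. INSM1 and TUBB3 are each read by 1 probe set, whose name marks cross-hybridisation. GAP43, a growth cone protein, did not pass by its brightest probe set (-0.20) but was called higher by the mean of its probe sets (0.86) and without cross-hybridising ones (2.62). Without control replicate 1, 2 of these markers fell.

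**Figure D4:**
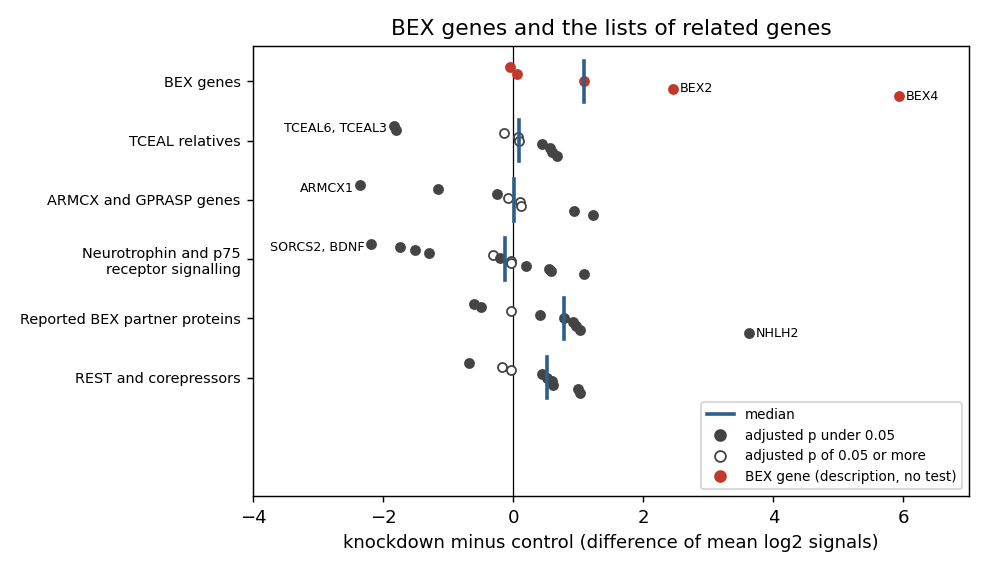
Difference of mean log2 signals, knockdown minus control (horizontal axis), for each measured gene of the BEX family and of 5 lists; filled dark points passed at an adjusted p under 0.05, open points did not, and blue bars are medians. BEX4 and BEX2 lie far to the right, NHLH2 is the one gene of the other lists beyond 3, and the TCEAL, ARMCX and neurotrophin lists spread to both sides of 0.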

How the data were processed

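The deposited table holds log2 signal values of 49293 probe sets on 4 one-colour arrays, which the authors made with RMA (per the submitters' processing notes, with no version or settings given in the sources used here). RMA evens out the distributions of arrays, so a global shift would not be seen (array medians 6.76 to 6.80), and it compresses folds at the dim end. Precision is limited by the number of arrays, which have no read depth.

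The platform annotation gave the names: 44988 probe sets have 1 symbol, 1832 have several and 2473 are unnamed here, and genes were named only from those with 1 symbol. Each gene was read by its probe set with the highest mean over the 4 arrays; each BEX gene has 1. Groups were compared over all 18132 genes with limma 3.58.1 in R 4.3.3 (group as the only factor, eBayes with intensity trend, 2 residual and 4.83 prior degrees of freedom, two-sided, Benjamini-Hochberg). Simulated data were used to test the fit. With 2 arrays against 2, an exact permutation test of 1 gene cannot give a p below 0.333. Members, lists and tests were chosen with earlier results of these data known. Named genes are all members, ELK3, up to 4 called genes per list by size (6 for the X chromosome stretch) and the 3 nearest to each member that differed by at least 1; other list members are named as exceptions and were chosen after their values were seen. Promoter windows of 250 bases come from RefSeq (GRCh38.p14), 1 per gene, for 27303 genes. Figures used matplotlib 3.10.9 in Python 3.11.15.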

Additional observations from a re-analysis of the deposited data

How the results depend on the processing

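Each BEX gene has 1 probe set, so the choice of probe set, the trend and the moderation could not move its difference. With single arrays left out, the log2 differences of BEX2, BEX3 and BEX4 ranged from 2.20 to 2.72, from 0.95 to 1.21 and from 5.70 to 6.16. BEX1 ranged from -0.16 to 0.052 and BEX5 from 0.018 to 0.082, and BEX5 was at 0.091 after quantile normalization. BEX3 and BEX5 had no value without cross-hybridising probe sets, and BEX1, BEX2 and BEX5 none with dim genes left out. Of all genes, 5354 were higher and 3865 lower, 12306 and 10122 when each probe set was tested, and 3469 and 2284 at a fold over 1.5 and an unadjusted p under 0.05. Without cross-hybridising probe sets, fewer genes were measured: 0 TCEAL genes were lower, 0 ARMCX and GPRASP genes higher, 3 neurotrophin genes lower, 1 partner gene lower, 1 epithelial marker higher, 0 neuronal and 0 leukocyte markers lower, and 3 genes of the X chromosome stretch higher. With dim genes left out, 1 ARMCX or GPRASP gene, 2 neurotrophin genes, 1 neuronal marker and 3 genes of the stretch were higher and 0 epithelial markers lower. Neuronal markers lower numbered 2 with the mean of probe sets and 2 with no intensity trend. With single arrays left out, neurotrophin genes higher ranged from 2 to 4, partner genes lower, REST list genes lower and neuronal markers lower each from 1 to 2. The lone array of a group was then assumed to vary like the other group. No paired analysis was possible because the groups share only the replicate number 1.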
